A study of Mus musculus with 2 samples.

Results

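The genes described here are those of fibroblast growth factor (FGF) signalling: 18 secreted ligand genes, 4 genes for the related intracellular FGF proteins, 4 receptor genes and 8 feedback genes, 34 genes of 21774 protein-coding genes in all. They were chosen by symbol, and all were found in the gene table. The data are a list of peaks from chromatin immunoprecipitation with sequencing (ChIP-seq) of H2AZ, a histone variant, in C57BL/6 mouse neural progenitor cells taken from brain at embryonic day 13 (E13). The series held 1 H2AZ library and 1 input library, neither with a named genotype or treatment, and the list was the deposited file used. With a single list there was no replicate, so no value has an error between samples, and intervals below are 95% exact intervals that cover counting error only. The limit given for a count of 0 is instead 3 counts over the total. Of 21546 peaks used, 43 lay at or in these 34 genes, 31 of them at a gene end.

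H2AZ replaces canonical H2A in some nucleosomes, above all those that flank transcription starts and enhancers. Secreted FGFs bind receptor tyrosine kinases together with heparan sulphate, and the receptors act through the adaptor Frs2 and the Ras and MAP kinase cascade. The ETS factor genes Etv4 and Etv5 are transcribed in response, as are Spry, Spred and Dusp6, whose products dampen the same cascade. In the embryonic brain FGFs pattern the forebrain and midbrain and keep progenitors dividing.

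Of the genes taken as markers of the labelled cells, 8 of 10 neural progenitor genes had a peak at a gene end, and Sox2 and Prom1 did not. The count was 3 of 6 for neurons, 1 of 5 for endothelial cells, 0 of 5 for microglia and 1 of 4 for blood. Of all protein-coding genes 55.4% had such a peak, and each of these marker lists is short. A peak is not a measure of expression, so these counts do not give the cell makeup. The number of reads was unknown, and the part of other cells in the results was not tested.

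An end peak is a listed peak that overlaps the 1 kb on either side of either gene end by at least 1 bp. Its score is the authors' own value, whose meaning the file does not name, and it is used here only to rank and describe peaks within the list. An end peak was present at 28 of the 34 genes (82.4%, interval 65.5 to 93.2%), against 55.4% of all protein-coding genes. With peaks inside the gene counted too, 31 of 34 had a peak, against 61.1%. All 4 receptor genes (interval 39.8 to 100%) and all 8 feedback genes (63.1 to 100%) had one, as did 13 of 18 secreted ligand genes (72.2%, 46.5 to 90.3%) and 3 of 4 intracellular genes (19.4 to 99.4%). The intervals of the 4 roles overlap, though overlap alone does not decide whether roles differ. With so few genes no difference between roles is claimed. No test was made, because the genes were chosen with earlier results of these data known.

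The end peaks of these genes were mostly low. The median score over the 28 genes was 11.9, against a median of 17.1 (quartiles 12.9 and 21.2) over the 12060 protein-coding genes with an end peak. The median was 10.4 for the secreted ligands, 12.0 for the receptors, 11.8 for the feedback genes and 17.0 for the intracellular genes. Counting only peaks at or above 11.9, the median of the list, 14 of 34 genes (41.2%) had an end peak, near the 44.4% of all protein-coding genes. At or above 17.9, the upper quartile of the list, the count was 4 of 34 (11.8%), against 25.2%. The 4 genes were Dusp6, Fgf18, Spry1 and Fgfr4. With windows of 1 kb, the higher share of these genes with an end peak was thus found only when peaks of low score were counted. Peaks above 11.9 also lay outside these windows, among them those near Spred2 (21.77), Fgfr1 (21.48) and Spry2 (13.72) and inside Fgf23 (28.98). Score limits were not combined with wider windows, so whether the higher share would then remain was not tested.

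**Figure D1:**
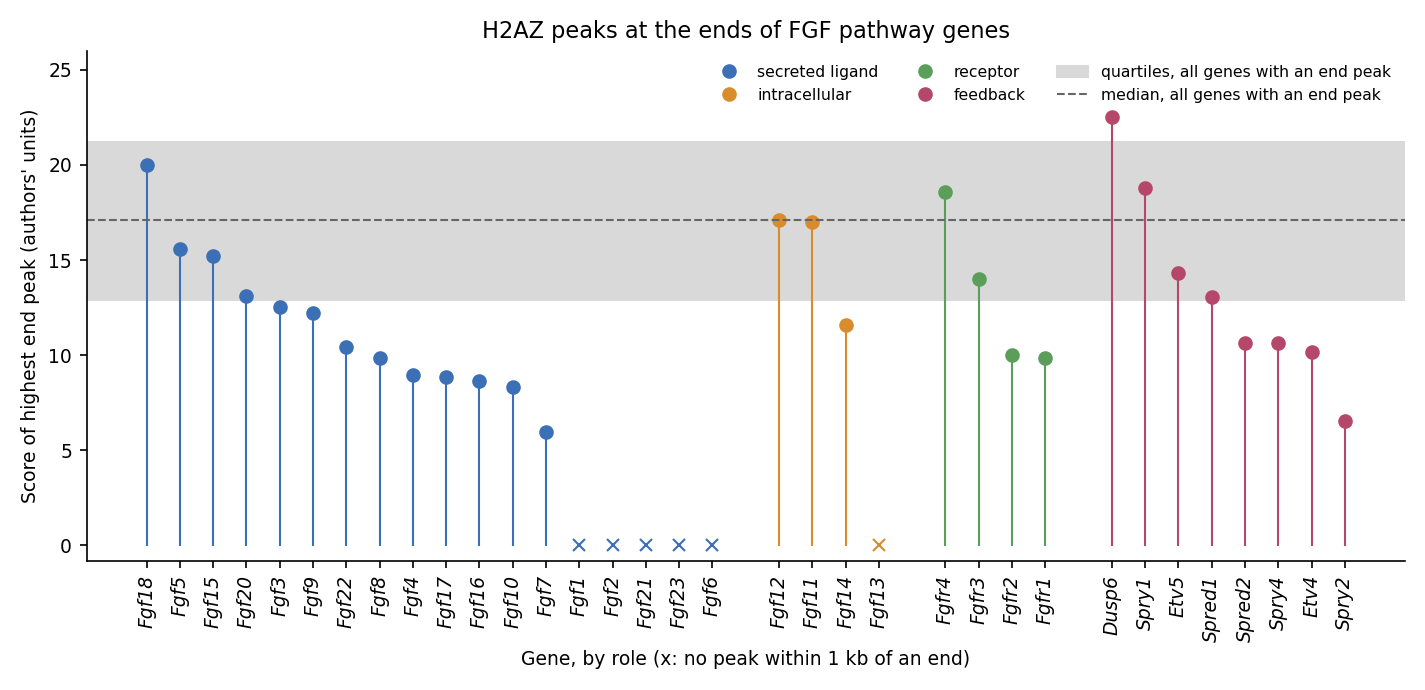
Score of the highest end peak (vertical axis, authors' units) of each gene (horizontal axis), by role. Crosses mark genes without an end peak; the grey band and dashed line give the quartiles and median over all protein-coding genes with an end peak, and Dusp6 at 22.52 is the only member above the band.

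Among the secreted ligand genes, the Fgf8 subfamily held both the highest score and some of the lower ones. Its members are made by signalling centres of the embryonic brain, with Fgf8 itself the main signal of the midbrain-hindbrain boundary and the anterior forebrain. Fgf18 had the highest end peak of all ligands, 19.99, on chromosome 11 from 33146578 to 33148716. Fgf8 had a peak at each end of the gene, 6.74 on chromosome 19 from 45736486 to 45737962 and 9.84 from 45742121 to 45743034, and the latter, 914 bp wide, was narrower than 99.9% of the highest end peaks of other genes. Fgf17 scored 8.83 on chromosome 14 from 70634988 to 70637563, in a peak that also reached ends of Dmtn and of the long non-coding RNA gene Gm38605. Thus Fgf18 lay at the 66.8th percentile of all genes with an end peak, and Fgf8 and Fgf17 at 11.2 and 7.8.

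In the Fgf9 subfamily, whose members signal between epithelium and neighbouring cells, all 3 genes had an end peak. The scores were 13.12 at Fgf20 (chromosome 8, 40285846 to 40287593), 12.23 at Fgf9 (chromosome 14, 58070013 to 58073034) and 8.65 at Fgf16 (chromosome X, 105762970 to 105765562). Fgf9 had a second, higher peak of 15.21 from 58074270 to 58077212, inside the gene and 3055 bp downstream of its listed transcription start. In the Fgf7 subfamily, largely ligands made by mesenchyme for epithelial receptors, all 4 genes had an end peak and all were below the median of other genes. Fgf3 scored 12.53 (chromosome 7, 144838219 to 144840073) and Fgf22, a presynaptic organiser in the hippocampus, scored 10.44 (chromosome 10, 79754399 to 79755893). Fgf10 scored 8.35 (chromosome 13, 118713223 to 118715879), and Fgf7 scored 5.97 (chromosome 2, 126033660 to 126035263). The Fgf7 peak, at percentile 0.9, was the lowest of all 28, and a weaker peak of 5.07 lay inside that gene.

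Fgf4, a ligand of the early embryo, scored 8.95 (chromosome 7, 144860885 to 144862380) and Fgf5, which limits hair growth, 15.59 (chromosome 5, 98253385 to 98255187). Fgf6, a muscle ligand of the same subfamily, had no end or interior peak. Fgf3, Fgf4 and Fgf15 lie within 62.3 kb of each other on chromosome 7, and the 3 listed peaks of that stretch each lay at 1 of the 3 genes. Fgf15, an endocrine FGF that is also made in the embryonic brain, had the highest of them, 15.21, in a wide peak of 3473 bp from 144894437 to 144897909 that also reached an end of the long non-coding RNA gene Gm26793. The remaining endocrine genes, Fgf21 of liver and Fgf23 of bone, had no end peak.

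The broadly acting ligands Fgf1 and Fgf2, which lack a classical signal peptide, had no end peak either. Fgf2 is the mitogen with which neural progenitors are commonly kept in culture, and it had no listed peak at its ends, inside it, or in the 175313 bp after its higher end, while the nearest listed peak before it ended 657454 bp from its lower end. Fgf1 held 3 low interior peaks of 8.05, 4.77 and 6.48, all over 10 kb from its ends. Fgf23 held an interior peak of 28.98, the highest of all 43 peaks at or in these genes and rank 285 of the list (chromosome 6, 127079070 to 127081150). It lay 7208 bp downstream of the listed start of Fgf23, and no end of another annotated gene was within 1 kb of it. It ended 1146 bp before the gene's higher end, and the nearest peak to Fgf21 began 1271 bp beyond that gene, at an end of Fut1. Both therefore lay just outside the 1 kb limit, and with windows of 2 kb or 5 kb the ligand count was 15 of 18.

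The peaks are numbered up to 32646 but only 21592 of them are listed. The 46 listed peaks numbered after the last one on chromosome Y break the order of positions and were left out. The numbers of the peaks used follow the order on each chromosome, so among them a missing number places an unlisted peak between its listed neighbours. A further 36 missing numbers come after the last one on chromosome Y, and their peaks cannot be placed. At both ends of Fgf23 and of Fgf13 the neighbouring listed peaks had consecutive numbers, so no unlisted peak is placed there by number. At Fgf2, 2 numbers are missing between its listed neighbours, and at Fgf6 and Fgf21 there is 1 each, so an unlisted peak at these genes cannot be told apart from none. At Fgf1 the lower end had no missing number and the higher end had 1. The end peaks of Fgf4 and Fgf15 are numbered 14331 and 14333, so an unlisted peak lay between them.

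The starts of these ligand genes differ in their content of CpG, the dinucleotide that clusters in the promoters of broadly and developmentally regulated genes. The 200 bases before the start of Fgf18 (chr11:33147401-33147600, minus strand), with an end peak of 19.99, and of Fgf23 (chr6:127072702-127072901, plus strand), with none, are shown to let the densest be compared with a sparse one. Each is written 5′ to 3′ with CpG in capitals, from RefSeq on GRCm38.p6. There are 32 CpG in the former and 6 in the latter.
Fgf18: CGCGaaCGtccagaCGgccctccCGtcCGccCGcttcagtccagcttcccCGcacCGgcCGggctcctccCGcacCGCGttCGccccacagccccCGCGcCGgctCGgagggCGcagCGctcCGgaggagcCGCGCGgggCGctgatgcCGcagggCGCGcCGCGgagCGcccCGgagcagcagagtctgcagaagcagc
Fgf23: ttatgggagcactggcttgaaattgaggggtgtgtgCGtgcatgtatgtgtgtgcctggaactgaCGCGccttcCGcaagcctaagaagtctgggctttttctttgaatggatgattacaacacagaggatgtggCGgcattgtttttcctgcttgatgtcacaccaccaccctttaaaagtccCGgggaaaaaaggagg

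The intracellular FGF genes Fgf11, Fgf12, Fgf13 and Fgf14 encode proteins that are not secreted and that bind voltage-gated sodium channels in neurons. Each held at least 1 interior peak, 5 in all, and 9 of the 34 genes did, against 13.8% of all protein-coding genes. Fgf12, Fgf13 and Fgf14 are over 500 kb long, and of the 352 protein-coding genes of at least 400 kb 59.1% held an interior peak, with a median of 1. Per 100 kb of gene the 4 genes had 0.273 interior peaks, against 0.213 in genes of at least 400 kb and 0.430 over all protein-coding genes. The 0.273 is not a rate of long genes alone, because Fgf11, at 6.88 kb, held 1 of the 5 peaks. Counts this small do not resolve a difference from other long genes.

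All 4 interior peaks of the 3 long genes covered a listed internal transcription start. In Fgf12 the interior peak scored 25.06 (chromosome 16, 28563763 to 28565676), above the 17.08 of its 5′ end peak (28751903 to 28754489), and covered 2 listed starts 188.3 and 188.7 kb into the gene. In Fgf13 the outermost start had no peak, while starts 18.2 kb and 451.1 kb into the gene had peaks of 12.53 (chromosome X, 59565628 to 59568951) and 10.44 (59133148 to 59135577). In Fgf14 the start 485.1 kb into the gene had a peak of 14.62 (chromosome 14, 124191381 to 124193389) and the outer end a wide peak of 3838 bp with a score of 11.59 (124674383 to 124678220). Of the 7 internal starts listed for these genes, 5 had a peak in the window from 250 bases before to 50 bases after the start (71.4%), against 45.9% of 4050 internal starts of protein-coding genes. The internal starts without a peak were 307.2 kb into Fgf12 and 419.5 kb into Fgf13. An internal start is one over 1 kb from both gene ends, and 2 of the 7 share a peak. Between the peaks of Fgf12 2 peak numbers are missing, so this gene held unlisted peaks, whereas none is missing between the 2 listed peaks of Fgf13 or between those of Fgf14. A further 3 are missing between the interior peak of Fgf12 and the listed peak before its lower end. That stretch holds the Fgf12 start without a peak.

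**Figure D2:**
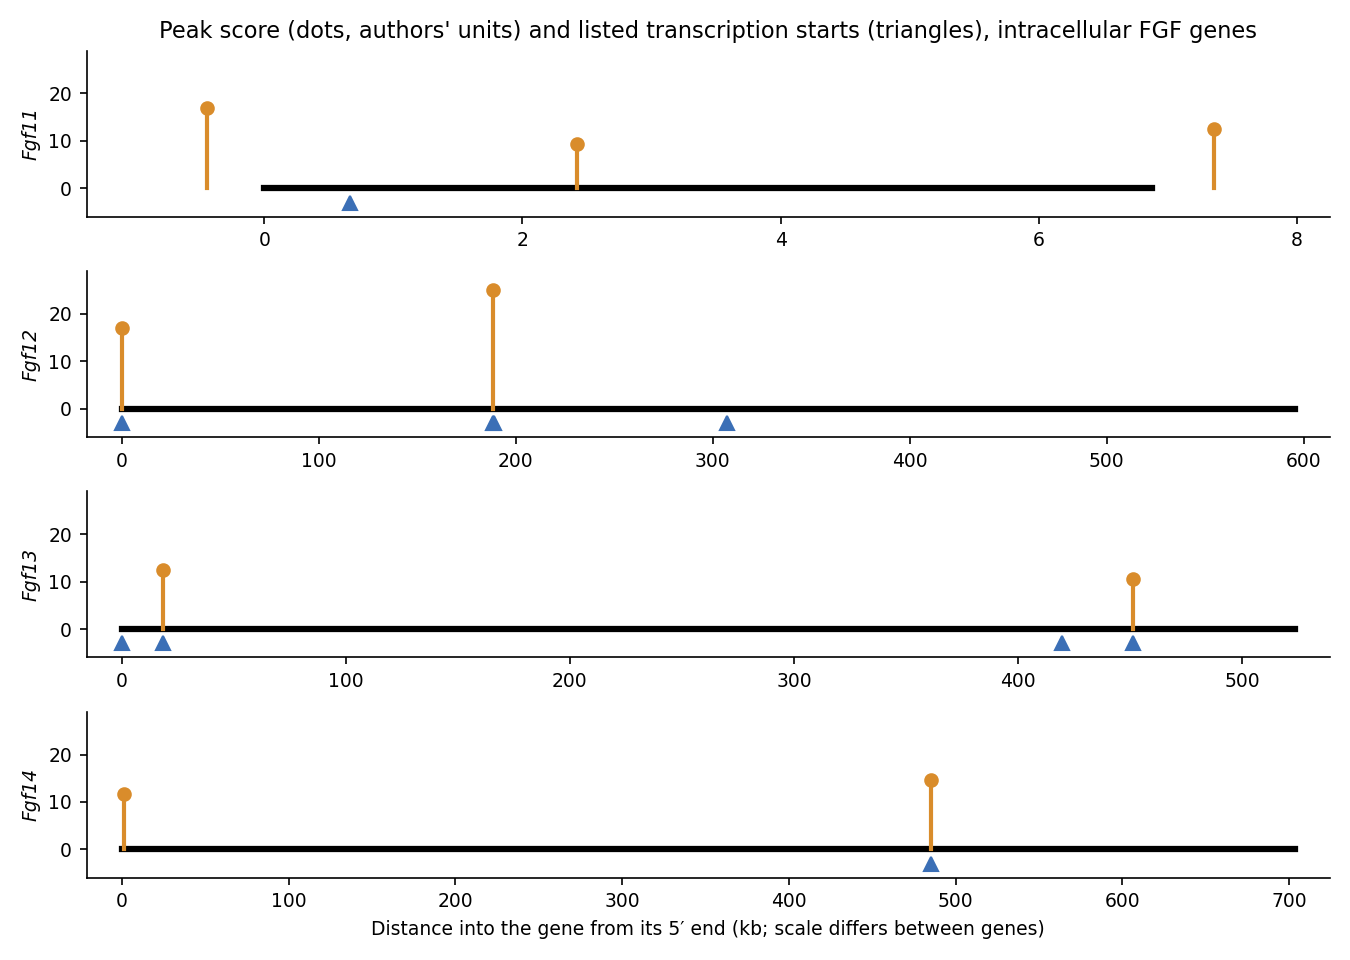
Position of peaks (dots, height is the score in authors' units) and of listed transcription starts (triangles) along the 4 intracellular FGF genes (black bars), as distance in kb from the 5′ end; the scale differs between genes. The interior peaks of Fgf12, Fgf13 and Fgf14 stand over triangles, and 2 triangles of Fgf13 and 1 of Fgf12 have no peak.

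Fgf13 has 4 listed starts, of which 2 had a peak, and the 200 bases before each are shown because they differ in sequence as in peaks. In transcript order they lie at chrX:59585573-59585772, minus strand, chrX:59567349-59567548, minus strand, chrX:59166089-59166288, minus strand and chrX:59134437-59134636, minus strand. CpG is in capitals. The starts without a peak have 1 and 5 CpG in this stretch, and those with a peak have 25 and 29.
Fgf13 start 1, no peak: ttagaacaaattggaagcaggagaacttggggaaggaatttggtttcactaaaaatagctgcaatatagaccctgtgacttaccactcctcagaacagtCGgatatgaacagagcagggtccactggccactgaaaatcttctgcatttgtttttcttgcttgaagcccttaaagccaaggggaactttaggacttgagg
Fgf13 start 2, peak of 12.53: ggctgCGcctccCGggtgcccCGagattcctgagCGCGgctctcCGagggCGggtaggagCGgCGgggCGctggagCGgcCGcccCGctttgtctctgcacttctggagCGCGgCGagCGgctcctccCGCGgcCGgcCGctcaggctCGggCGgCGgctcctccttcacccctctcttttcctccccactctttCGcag
Fgf13 start 3, no peak: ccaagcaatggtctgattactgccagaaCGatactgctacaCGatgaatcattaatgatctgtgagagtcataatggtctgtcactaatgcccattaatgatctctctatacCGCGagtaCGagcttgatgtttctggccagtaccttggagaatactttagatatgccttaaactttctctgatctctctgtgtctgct
Fgf13 start 4, peak of 10.44: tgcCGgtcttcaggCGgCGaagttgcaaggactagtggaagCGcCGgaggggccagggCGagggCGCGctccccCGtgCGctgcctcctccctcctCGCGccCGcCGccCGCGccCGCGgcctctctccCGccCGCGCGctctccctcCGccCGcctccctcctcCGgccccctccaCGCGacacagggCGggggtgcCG
In Fgf12 the internal start without a listed peak had 22 CpG in its start window of 300 bases, against 34 and 29 for those with a peak. The contrast in Fgf13 was thus not repeated among listed peaks. That Fgf12 start lies in a stretch with 3 missing peak numbers, so an unlisted peak at it cannot be told apart from none.

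Fgf11, the compact member of the subfamily at 6.88 kb, lies among close neighbours. Its end peaks scored 17.0 (chromosome 11, 69801934 to 69804838) and 12.53 (69794646 to 69796530), and the former also reached ends of Tmem102 and of G630025P09Rik and the latter an end of Chrnb1. An interior peak of 9.25 was separated from the former by 9 bp. Which gene these peaks belong to cannot be told apart.

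All 4 receptor genes had an end peak, and none held a listed interior peak. At Fgfr2, 1 peak number is missing between its end peak and the listed peak before its lower end. An unlisted interior peak there cannot be told apart from none. Fgfr4, the receptor best known from liver and muscle, had the highest score, 18.55 (chromosome 13, 55152266 to 55153692), in a narrow peak of 1427 bp. Fgfr3, which is strong in cortical progenitors and later in astrocytes, scored 13.98 in a peak of 3428 bp that covered both of its listed starts (chromosome 5, 33721004 to 33724431). The major receptors of the early forebrain were lower. Fgfr2 scored 9.99 (chromosome 7, 130264513 to 130267109) and Fgfr1 scored 9.84 (chromosome 8, 25518266 to 25520261), at percentiles 12.1 and 11.2, and the Fgfr1 peak also reached an end of the long non-coding RNA gene Gm31288. A peak of 21.48, higher than any receptor's end peak, lay 2738 bp before the lower end of Fgfr1 (25513952 to 25516021), outside the windows.

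The 200 bases before the starts of Fgfr4 (chr13:55152618-55152817, plus strand) and Fgfr2 (chr7:130266809-130267008, minus strand) are shown as the receptors with the highest and the most offset end peak. The midpoint of the peak was 161 bp downstream of the Fgfr4 start and 997 bp downstream of the Fgfr2 start. CpG, in capitals, numbers 15 in the former and 2 in the latter.
Fgfr4: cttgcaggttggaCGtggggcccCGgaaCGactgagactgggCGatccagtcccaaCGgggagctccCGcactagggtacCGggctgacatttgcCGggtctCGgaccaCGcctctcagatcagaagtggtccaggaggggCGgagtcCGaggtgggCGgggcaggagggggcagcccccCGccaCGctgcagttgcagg
Fgfr2: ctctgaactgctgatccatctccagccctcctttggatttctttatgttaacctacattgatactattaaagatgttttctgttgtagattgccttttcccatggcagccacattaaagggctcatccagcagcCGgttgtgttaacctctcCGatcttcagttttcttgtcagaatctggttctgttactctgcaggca

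All 8 feedback genes had an end peak, and none held a listed interior peak. Dusp6, the phosphatase of the MAP kinase ERK, carried the highest end peak of all 34 genes, 22.52 (chromosome 10, 99260649 to 99262737). That peak did not overlap the gene, ending 494 bp before its start, and was separated by 79 bp from a peak of 6.97 that covered the start (99262817 to 99264997). Spry1 scored 18.79 (chromosome 3, 37639394 to 37641663). The ETS factor genes scored 14.32 at Etv5 (chromosome 16, 22438492 to 22441611) and 10.14 at Etv4 (chromosome 11, 101783617 to 101786606), the latter also at an end of Gm39392.

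The other inhibitors of the cascade were lower. Spred1 scored 13.03 (chromosome 2, 117119031 to 117122092) and Spred2 scored 10.64 (chromosome 11, 19923588 to 19926789). Spry4 scored 10.62 in a peak that also reached an end of Arhgap26, and Spry2 scored 6.56 (chromosome 14, 105895665 to 105897205), at percentile 1.7. At Spred2 and Spry2 a higher peak stood nearby outside the windows, of 21.77 ending 3215 bp before the Spred2 start (19919215 to 19921227) and of 13.72 with its midpoint 2145 bp upstream of the Spry2 start (105898039 to 105899889). At Etv4 a peak of 11.33, also above its end peak, lay with its midpoint 29568 bp from the gene.

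The 200 bases before the starts of Spry1 (chr3:37639747-37639946, plus strand) and Dusp6 (chr10:99263031-99263230, plus strand) are shown because the former start lay under a peak of 18.79 and the latter under a peak of 6.97 beside the high upstream peak. CpG is in capitals, 22 and 13 in all.
Spry1: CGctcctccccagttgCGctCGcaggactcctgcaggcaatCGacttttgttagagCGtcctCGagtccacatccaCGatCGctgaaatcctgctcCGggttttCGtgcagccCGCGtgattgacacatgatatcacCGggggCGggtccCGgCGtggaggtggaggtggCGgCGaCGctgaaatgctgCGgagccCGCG
Dusp6: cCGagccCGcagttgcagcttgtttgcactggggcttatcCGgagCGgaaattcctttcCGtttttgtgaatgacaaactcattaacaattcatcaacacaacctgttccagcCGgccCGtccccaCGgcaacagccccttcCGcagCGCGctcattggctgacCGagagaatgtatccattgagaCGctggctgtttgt

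Many of these low end peaks were wide. Of the 28 genes with an end peak, 14 had a highest end peak that was both wider than 2207 bp and lower than 17.1, the medians over all protein-coding genes with an end peak, and 19.9% of those genes did. Among genes with an end peak these were 5 of 8 feedback genes, 5 of 13 secreted ligand genes, 2 of 4 receptor genes and 2 of 3 intracellular genes. The median width was 3026 bp for the feedback genes, 2296 bp for the receptors and 2905 bp for the intracellular genes. For the secreted ligands it was 1855 bp, below the 2207 bp of all genes. Only 4 of the 28 genes scored above 17.1, so the joint count partly counts their low scores again. By width alone 16 of the 28 exceeded 2207 bp, against 6026 of 12060 protein-coding genes with an end peak. At Spry4, Spred1, Spred2, Etv4 and Etv5 the widths ran from 2990 to 3607 bp, at percentiles 91.9 to 97.8, while their scores lay at percentiles 12.2 to 32.0. Spry2, with 1541 bp, was both low and narrow. Width depends on the settings of the peak caller, which no source used here gives.

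**Figure D3:**
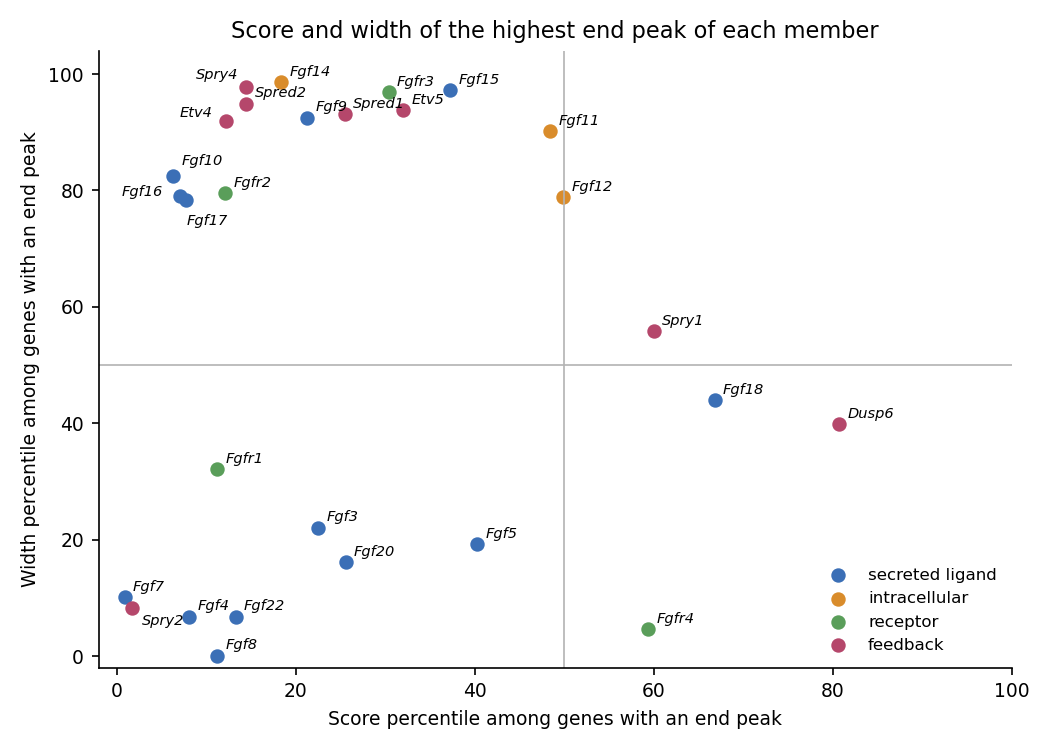
Percentile of the score (horizontal axis) and of the width (vertical axis) of the highest end peak of 28 genes, coloured by role, among all protein-coding genes with an end peak. The grey lines mark the medians; 14 genes lie in the upper left, wide and low, Fgf12 lies on the line of the median score, and Spry1 is the 1 gene in the upper right.

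Where the strand was listed, every gene with an end peak had it at the 5′ end. RefSeq start sequences on GRCm38.p6 matched 25 of the 34 genes, with 33 start windows; Fgf1, Fgf8, Fgf15, Fgf16, Fgf17, Fgf20, Fgfr1, Spry4 and Etv4 were not matched. Of the 25 genes, 20 had an end peak, all 20 had one at the 5′ end, and 1, Fgf11, had one at the 3′ end too. Of 17492 protein-coding genes of listed strand, 53.1% had an end peak at the 5′ end and 7.29% at the 3′ end. In 19 of these genes an end peak covered a listed start, and its midpoint lay between -1163 bp (upstream) and 997 bp (downstream) of the nearest start, with a median of 102 bp downstream.

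Pooled over the roles, start windows of these genes held more CpG than most, and those with a peak were mostly the CpG-rich ones. The median was 19 CpG per 300 bases, against 13 in 21263 windows of protein-coding genes. For the 12 windows of secreted ligand genes it was 13, the same as for all windows. It was 20 for the 10 intracellular windows, 23 for the 4 receptor windows and 28 for the 7 feedback windows. Of windows with 10 or more CpG, 78.2, 84.0 and 80.0% of all genes' windows had a peak with 10 to 19, 20 to 29 and at least 30 CpG. In these genes the counts were 10 of 11, 7 of 9 and 7 of 7. Below 10 CpG, 2 of 6 windows of these genes had a peak, at Fgfr2 with 4 CpG and Fgf11 with 5, and 6.26% of all windows did with under 5 and 35.8% with 5 to 9. In all, 26 of the 33 windows (78.8%) and 53.0% of all windows had a peak. Within a class these genes have 2 to 11 windows, too few to show a difference from other genes.

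**Figure D4:**
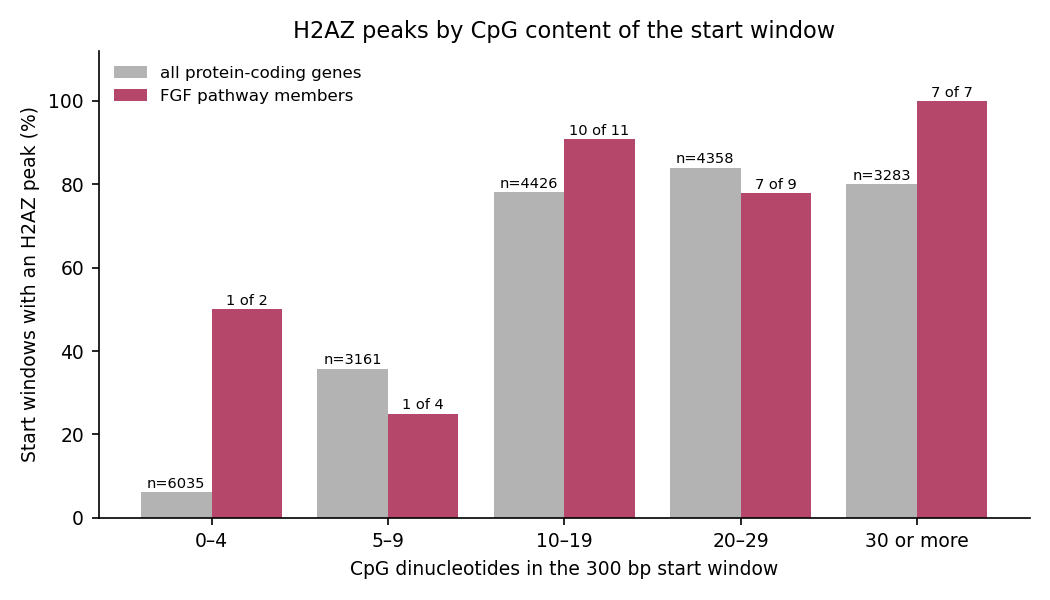
Share of start windows with an H2AZ peak (vertical axis, %) by the number of CpG in the window (horizontal axis), for all protein-coding genes (grey) and for the 33 windows of the FGF pathway genes (red, counts above the bars). Both rise from the windows under 10 CpG to those of 10 or more; the classes of these genes hold 2 to 11 windows.

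Exceptions to this pattern were few. Fgf2, with 24 CpG in its window and an observed to expected CpG ratio of 0.84, and the inner Fgf12 start with 22 had no peak in the window, and Fgf6 had none with 10. Peak numbers are missing around each of these starts, so an unlisted peak there cannot be told apart from none. Fgf18 had the most CpG of all 33 windows, 47. The letters CCGGAAG, a core that ETS factors can bind, were searched on both strands. They were found in none of the 33 windows, which allows a share of up to 9.09% (3 counts of 33), and in 11.6% of all windows. The motif holds 1 CpG. That limit is approximate and the 33 windows come from 25 genes, so no depletion is claimed. TATAAA, searched on both strands and not overlapping CCGGAAG, was found in 3 windows and in 12.6% of all windows. The 3 were those of Fgf5, Fgf21 and the Fgf13 start 419.5 kb into the gene.

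Outside the genes, peaks were described within 100 kb by the protein-coding gene whose end was nearest, a description added after the values at the ends were seen. All 8 feedback genes had at least 1 such flank peak, 23 in all, against 15.3% of all protein-coding genes. So did 3 of 4 receptor genes, 5 of 18 secreted ligand genes and 1 of 4 intracellular genes. Spry2 had 6, Spry1 had 4, Spred2 and Etv4 had 3 each, Spry4 (end peak on chromosome 18 from 38599561 to 38603167), Dusp6 and Etv5 had 2 each and Spred1 had 1. Fgfr2 had 3, all 53.2 to 88.4 kb away with scores of 7.76 to 8.05, Fgfr4 had 2, Fgfr1 had 1 and Fgfr3 had none.

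These counts depend on how much sequence lies nearest to a gene. No feedback gene had under 20 kb of such sequence, where 5.14% of genes had a flank peak. Of the 34 genes 7 had under 20 kb, among them the ligand genes Fgf1, Fgf2, Fgf7, Fgf17, Fgf21 and Fgf22. None of the 7 had a flank peak. With 20 to 50, 50 to 100 and 100 to 300 kb the feedback counts were 1 of 1, 3 of 3 and 4 of 4, against 20.2, 34.1 and 31.7% of all genes. Per 100 kb of such sequence the feedback genes had 2.83 flank peaks (interval 1.79 to 4.24), the receptors 2.34 (0.858 to 5.09), the secreted ligands 0.645 (0.237 to 1.4) and the intracellular genes 0.249 (0.00629 to 1.39), against 0.590 over all protein-coding genes. The intervals of the feedback genes and of the secreted ligands do not overlap, though peaks near a gene are not independent and no test was made. Most flank peaks were low. Counting only scores of at least 11.9, 3 feedback genes (Spry1, Spry2 and Spred2), 1 receptor gene (Fgfr1) and no ligand gene had one, against 3.79% of all genes. When ends of all annotated genes competed, non-coding RNA genes included, 3 of 8 feedback genes, 2 of 4 receptor genes, 3 of 18 ligand genes and 1 of 4 intracellular genes had a flank peak, against 6.20% of all protein-coding genes. At Spry1, 2 of the 4 flank peaks lay at ends of the long non-coding RNA genes Gm46799 and 4930594O21Rik.

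**Figure D5:**
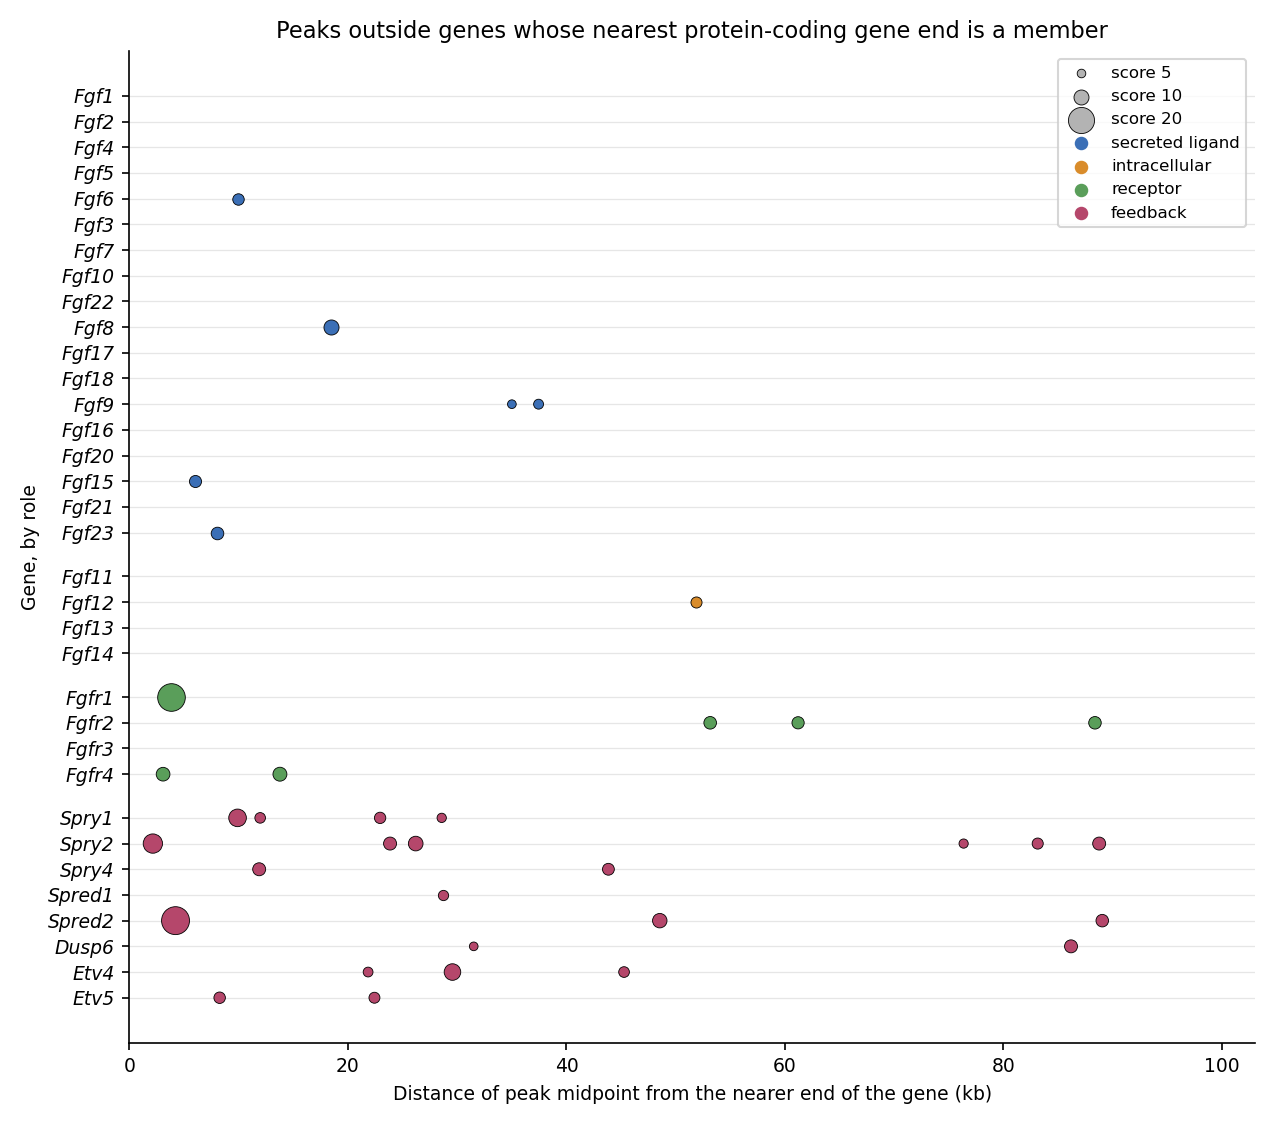
Peaks outside genes and end windows, drawn by the distance of their midpoint from the nearer end of the gene (horizontal axis, kb) for each of the 34 genes (vertical axis, by role); dot area grows with the score. The 8 feedback genes each have 1 to 6 dots, 13 of the 18 ligand genes have none, and the largest dots stand beside Fgfr1 and Spred2.

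No listed interior peak was found in the 12 receptor and feedback genes, which together span 456.1 kb. A count of 0 there allows up to 0.658 per 100 kb (3 counts), above the 0.430 of all protein-coding genes, so fewer interior peaks were not detectable at this length. The secreted ligand genes had 7 in 450.6 kb, in Fgf1, Fgf7, Fgf9, Fgf18 and Fgf23. This is 1.55 per 100 kb, against 0.430, and 5 of 18 genes, against 13.8% of all protein-coding genes. Of the 7 peaks 3 lay in Fgf1 and 2 scored at least 11.9, and the difference was not tested.

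Other genes of FGF signalling had end peaks about as often as these genes. The median score of the former was 18.5 in the cascade, 16.2 at the cell surface and 14.3 among further regulators. Of 47 such genes found in the table, 39 had an end peak (83.0%, interval 69.2 to 92.4%), with a median score of 17.1, and 32 (68.1%) had one at or above 11.9, against 44.4% of all protein-coding genes. In the cascade from adaptors to kinases 18 of 20 had one, with 15 at or above 11.9. Among genes of the cell surface, co-receptors and heparan sulphate the count was 12 of 18, with 10 at or above 11.9, and among further regulators 9 of 9, with 7. The highest were Map2k1, the kinase MEK1 (30.13), Il17rd, an FGF antagonist at the membrane (29.09), Frs2, the receptor adaptor (26.5), and Fgfbp3, an FGF carrier (25.06). The first in alphabetical order without an end peak were Fgfbp1, Gab1, Kl and Klb, of which Kl and Klb encode the co-receptors of the endocrine FGFs. A score of 17.9 was reached by 10 of 20 transducing genes (50.0%), 4 of 9 further regulators (44.4%) and 3 of 18 surface genes (16.7%), and by 4 of the 34 ligand, receptor and feedback genes (11.8%), against 25.2% of all protein-coding genes. The lists were chosen by hand, and these differences were not tested.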

How the data were processed

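Chromatin of neural progenitor cells was immunoprecipitated for H2AZ and sequenced beside an input, 1 library each. The deposited file is 1 list of peaks without a header: chromosome, start, end, name and score. The score of each peak is the authors' own value, and the deposited file does not name what is scored. The other columns used, deposited starts and ends, are counted from 0 and printed here from 1. The peak names carry the name MACS, per the deposited file; its version, settings and control are not given in any source used here. Per the submitters' processing notes, CASAVA 1.4, Bowtie2 2 and FastQC were used, with mm9 as the build.

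Positions were read as GRCm38, since 51.6% of peaks lay within 1 kb of an end of a protein-coding gene of the RefSeq table of GRCm38.p6, and 8.26 to 11.4% did when shifted by 100000 or 1000000 bp either way. Left out were 46 peaks numbered after the last one on chromosome Y, out of order of position, and 348 genes on other sequences. An interior peak overlaps the gene but neither end window. A flank peak lies outside genes and end windows with its midpoint within 100 kb of the nearest protein-coding gene end. Shares have exact binomial (Clopper-Pearson) intervals, rates exact Poisson intervals and no test was made, with 1 library per group. Depth is unknown. All 34 members are named; of 48 other pathway genes (Spry3 was not found) the 4 with the highest end peak and the first 4 without are. Members and lists were chosen with earlier results of these data known. Alternatives were other windows, overlap rules, score limits, merged peaks, 5′ ends alone and all listed peaks. Python 3.11.15, numpy 2.4.6, pandas 2.3.3, scipy 1.17.1 and matplotlib 3.10.9 were used; the overlap code was tested on simulated data.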

Additional observations from a re-analysis of the deposited data

How the results depend on the processing

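No paired analysis was possible because each group has 1 library. Of 87 values recomputed under an alternative, 67 stayed within 1.5 times the value given above. Counting end peaks only at a score of at least 11.9 gave 6 of 18 secreted ligand genes, 2 of 4 receptor genes, 4 of 8 feedback genes and 14 of 34 genes in all. At a score of at least 17.9 the counts were 1, 1, 2 and 4, with 0 of 4 intracellular genes and 17 of 47 other pathway genes. With the 5′ end alone 8 of the 12 ligand genes of listed strand had an end peak. This count is below 13 only because it covers 12 of the 18 genes, and none of the 12 changed. Of interior peaks, 2 in ligand genes and 3 in intracellular genes scored at least 11.9. For the flank peaks, alternatives chosen after seeing the data gave 0 intracellular genes within 50 kb. At scores of at least 11.9 they gave 0 ligand, 0 intracellular, 1 receptor and 3 feedback genes, and with ends of all annotated genes 3 ligand and 3 feedback genes. With windows of 500 bp to 5 kb, 28 to 30 of the 34 genes had an end peak, and by midpoint 27. Depth is unknown, so a missing peak need not be a lack of H2AZ.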
